A study of Caenorhabditis elegans with 2 samples.

Results

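EFL-1 peaks that stand at the starts of 2 or more genes are described here. A peak was taken as shared when its summit lay within 500 bp of the annotated starts of at least 2 different protein-coding genes, and 410 of the 2179 nuclear peaks in the authors' reproducible list met this rule. Of the others, 976 had 1 gene in reach and 793 had none. The members were chosen by position, so their closeness to starts is a description. Their signal also entered the choice, because the list was cut at a signal value.

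EFL-1 was mapped by chromatin immunoprecipitation with sequencing in whole young adult Caenorhabditis elegans hermaphrodites of strain YL479. The labels name an insertion aimed at efl-1 and a stable transgenic line in which EFL-1 carries a GFP-FLAG tag at its C terminus; chromatin was pulled down with an antibody against GFP, while the antibody field reads efl-1. There was 1 group, with 2 biological replicates, and no untagged, input or other control sample was analysed here. The chromatin came from whole animals, so a peak does not say in which cells EFL-1 sat, and no expression data were analysed here against which a tissue could be checked. The files hold no read counts, so depth is unknown.

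EFL-1 belongs to the E2F family, whose members bind DNA together with a DP partner. In the DREAM complex they are joined by a pocket protein and the MuvB proteins. E2F factors are known for their control of genes for the cell cycle and DNA replication. The C. elegans genome is compact, and neighbouring genes on opposite strands often start close to each other, so that 1 stretch of promoter DNA lies before both. Many worm transcripts also receive a spliced leader that replaces their original 5′ end, so an annotated start can lie downstream of the place where transcription begins.

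The 7 sequences that follow are the stretches around the summit between the starts of divergent pairs, clear of any annotated exon. Sequence of the first chromosome is not shown. The first 5 belong to the strongest divergent pairs among the rest, and rpl-12 and lin-54 are shown because LIN-54 is the DNA-binding subunit of MuvB. The last is the strongest of the rest with neither form of the E2F string. They are on build ce11, plus strand, 5′ to 3′, with the minus-strand gene on the left and the plus-strand gene on the right. Capitals mark the E2F string (TTTCCCGC, TTTCGCGC, TTTGCCGC or TTTGGCGC) or its short form, which is the same string without its first T, on either strand. Every long string therefore also holds a short one.
tbb-1 and rib-2, chrIII:10742579-10742799: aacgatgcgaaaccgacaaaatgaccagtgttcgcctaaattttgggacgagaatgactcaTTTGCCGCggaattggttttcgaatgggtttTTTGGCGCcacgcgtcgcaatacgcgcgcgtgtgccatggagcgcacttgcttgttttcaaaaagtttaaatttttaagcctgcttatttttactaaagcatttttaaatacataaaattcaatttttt
T23F6.3 and rbd-1, chrIV:12724761-12724950: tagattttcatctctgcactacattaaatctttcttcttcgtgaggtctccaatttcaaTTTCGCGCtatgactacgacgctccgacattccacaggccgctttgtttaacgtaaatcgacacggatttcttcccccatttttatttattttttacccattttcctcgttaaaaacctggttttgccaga
Y53F4B.9 and Y53F4B.11, chrII:15010521-15010741: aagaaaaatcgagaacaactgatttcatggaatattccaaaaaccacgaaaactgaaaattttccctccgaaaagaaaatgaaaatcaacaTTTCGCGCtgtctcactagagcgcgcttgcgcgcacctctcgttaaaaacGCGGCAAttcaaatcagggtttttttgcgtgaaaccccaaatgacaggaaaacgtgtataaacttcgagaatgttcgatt
npp-3 and top-2, chrII:11874789-11874998: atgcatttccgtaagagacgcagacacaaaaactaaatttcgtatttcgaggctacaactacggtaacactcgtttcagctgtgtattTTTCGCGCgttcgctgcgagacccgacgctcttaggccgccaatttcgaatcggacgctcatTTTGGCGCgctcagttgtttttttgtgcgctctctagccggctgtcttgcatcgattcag
rab-18 and kbp-4, chrIII:1080776-1080889: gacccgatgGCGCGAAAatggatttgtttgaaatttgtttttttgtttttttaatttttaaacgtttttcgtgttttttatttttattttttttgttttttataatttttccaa
rpl-12 and lin-54, chrIV:13240652-13240797: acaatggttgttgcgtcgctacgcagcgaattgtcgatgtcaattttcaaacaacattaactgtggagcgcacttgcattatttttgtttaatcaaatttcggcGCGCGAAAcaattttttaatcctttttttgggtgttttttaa
rpl-20 and Y17G9B.5, chrIV:4749982-4750202: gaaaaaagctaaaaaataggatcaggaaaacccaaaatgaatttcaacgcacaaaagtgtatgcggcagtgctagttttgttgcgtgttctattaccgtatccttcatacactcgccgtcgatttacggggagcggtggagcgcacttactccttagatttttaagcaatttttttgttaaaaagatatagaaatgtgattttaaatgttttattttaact
Between tbb-1 and rib-2 there were 2 long strings, both on the tbb-1 side of the summit. Between npp-3 and top-2 there were also 2. Those at rab-18 and rpl-12 read as GCGCGAAA, the string on the minus strand. A match is a description of these letters and not a measured binding site.

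The 3 strongest shared peaks lay between tbb-1 and rib-2, T23F6.3 and rbd-1, and Y53F4B.9 and Y53F4B.11. The peak between tbb-1, which encodes a beta-tubulin, and rib-2, a glycosyltransferase gene of heparan sulfate synthesis, reached a signal value of 860 in the pool, with 509 in replicate 1 and 352 in replicate 2. It ranked 5 among all nuclear peaks. Between T23F6.3 and rbd-1, an RNA-binding protein gene of ribosome biogenesis, the pool gave 819, replicate 1 gave 557 and replicate 2 gave 263. The peak of Y53F4B.9 and Y53F4B.11 had 655, 440 and 214 in the same order. These peaks stood within the strongest 20 nuclear candidates in each replicate.

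Next came genes of the nucleus and of chromosome segregation. The nucleoporin gene npp-3 and the topoisomerase gene top-2 shared a peak with 557 in the pool, against 329.8 for replicate 1 and 234 for replicate 2. The GTPase gene rab-18 and kbp-4, which encodes a subunit of the NDC80 kinetochore complex, shared one with a pooled value of 476, 308 for replicate 1 and 169 for replicate 2. The pair of dvc-1, a DNA damage response gene, and the importin alpha gene ima-1 had 471, 256 and 221. A MuvB gene stood in 2 of the following pairs: lin-53 with nra-2 at 468, 278 and 190.5, and lin-54 with the ribosomal protein gene rpl-12 at 454, 300.5 and 149.8 (pool, replicate 1 and replicate 2). The rest of the 12 strongest held, among others, 2 ribosomal protein genes and 1 elongation factor gene. The ribosomal protein genes rpl-20, with Y17G9B.5, and rps-12, with the kinetochore gene ska-3, had pooled values of 463 and 452. The elongation factor gene eef-2 and clsp-1, a replication checkpoint gene, had 432 in the pool, 273 for replicate 1 and 155 for replicate 2. The pseudouridine synthase gene dkc-1 and the Ran GTPase gene ran-1 had 447, 223 and 226, with the replicates nearly equal. Replicate 1 had the higher value in 377 of the 403 shared peaks with a candidate in both replicates. No source used here says on which scale these values are.

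Most shared peaks stood at a divergent pair. Of the 410, 371 had exactly 2 genes in reach that point away from each other (90.5%, 95% Wilson interval 87.3 to 92.96%). In 18 peaks (4.39%) both genes lay on the same strand, in 10 (2.44%) the starts faced each other, and in 11 (2.68%) there were 3 genes in reach. Among 545 weaker pooled candidates that met the same rule but overlap no reproducible peak, 73.9% were divergent, 109 of 545 (interval 16.9 to 23.6%) on the same strand, 4.22% convergent and 1.83% with 3 or more genes. The layout follows in part from the rule, which needs close starts. Intervals cover counting error only, and no test was made across peaks, which are not replicates.

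Shared peaks made up 18.8% of the nuclear reproducible peaks, against 1.97% of the 27723 weaker candidates. Among peaks with any gene in reach the share was 29.6% (Wilson interval 27.2 to 32.04%), against 6.96% of such candidates (6.42 to 7.55%). By position alone, 1.27% of the nuclear genome lies within 500 bp of starts of 2 or more genes, which is 5.49% of the bases near any start. In the order of signal, 26.1% of the strongest 545 nuclear peaks were shared peaks, then 21.3%, 16.5% and 11.4% of the 3 following sets of 545, 544 and 545. Among peaks with a gene in reach the shares were 31.4%, 32.95%, 30.5% and 21.6%, and the intervals of the first 3 of these overlap.

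The signal of shared peaks was close to that of peaks with 1 gene. In the pool the median was 97.5 for shared peaks (quartiles 66.4 and 171), 88.6 for peaks with 1 gene (59.7 and 154) and 67.8 for peaks with none (54.6 and 96.1). In replicate 1 these medians were 63.4, 57.2 and 43.6, and in replicate 2 they were 35.1, 33.2 and 28.0. The ratio of the median of shared peaks to that of peaks with 1 gene was 1.101 in the pool, and 0.999 when only the stronger 50% of the peaks were used, so its direction depended on which peaks were used. The highest values belonged to peaks with 1 gene, up to 1895.

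**Figure D1:**
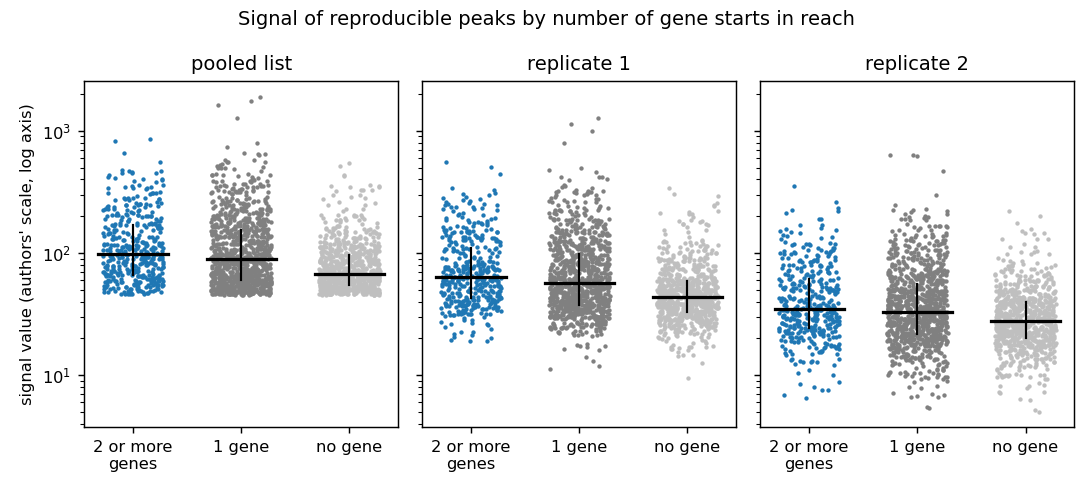
Signal value of each reproducible nuclear peak (log axis) in the pooled list, replicate 1 and replicate 2, for peaks with 2 or more genes, 1 gene and no gene within 500 bp of the summit. Horizontal bars are medians and vertical bars quartiles; the pooled medians are 97.5, 88.6 and 67.8, and the clouds overlap over most of their range.

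Shared peaks were found again in each replicate. The reproducible list was made from these same replicates, so the overlap, ranks and correlation below were set in part by that choice. All 410 overlapped a candidate of replicate 1 and 403 one of replicate 2, and 329 (80.2%, Wilson interval 76.1 to 83.8%) ranked within the strongest 2179 nuclear candidates of both, against 72.03% of peaks with 1 gene (69.1 to 74.8%). Across 403 peaks the replicates' values correlated with rho = 0.79 (Spearman) and with r = 0.81 after log2 (Pearson); peaks share their libraries and are not independent. The summits of the replicates lay a median of 17 bp apart (quartiles 8 and 34 bp), and in 390 of the 403 all genes of the peak were in reach of each replicate's own summit. When the strongest 2179 nuclear candidates of each replicate were taken alone, 317 gene sets were found in both, which is 77.3% of the 410 sets of replicate 1 and 88.3% of the 359 of replicate 2.

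**Figure D2:**
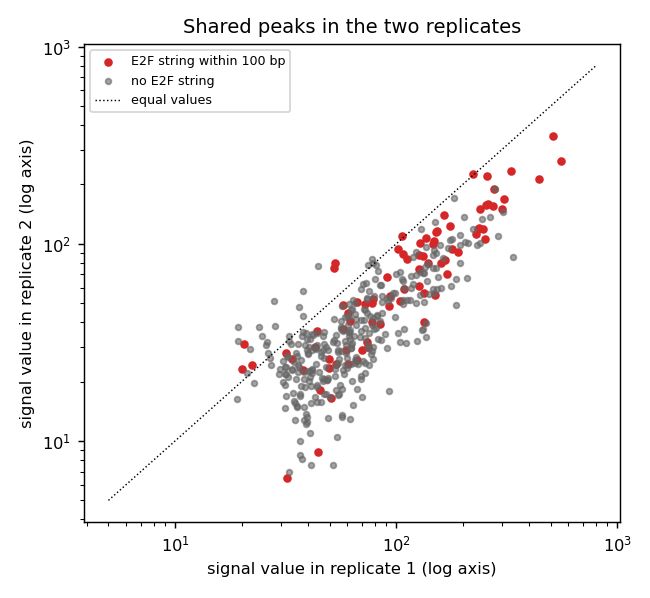
Signal value of 403 shared peaks in replicate 1 (x axis) and replicate 2 (y axis), both on log axes; red points hold the E2F string within 100 bp of the summit and the dotted line marks equal values. The points rise together, most below the line, and 377 have the higher value in replicate 1.

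One shared peak shows a limit of matching lists by overlap. The summit at pri-2, a primase gene, and W02D9.2 had 254 in the pool and 165 in replicate 1, but no overlapping candidate in replicate 2. A neighbouring peak of the same pair, with 118 in the pool, was matched to 165 in replicate 1 and 82.9 in replicate 2, so a single candidate of replicate 1 was counted for both. The peaks of ani-2 and clec-88, with pooled values of 114 and 52.5, likewise matched a single candidate of 44.2 in replicate 1. Such a second peak was present at 4 divergent pairs: pri-2 with W02D9.2, spn-4 with spe-39, ani-2 with clec-88, and hsp-90 with C47E8.4. The 371 divergent peaks therefore stood at 367 pairs.

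Most summits lay inside the stretch between divergent starts and usually nearer to one of them. The starts were a median of 387 bp apart (quartiles 267 and 542 bp, range 12 to 947 bp), and 344 of the 371 summits (92.7%, Wilson interval 89.6 to 94.95%) lay between them. Of the positions that the rule allows for these pairs, 64.01% on average lie between the starts, and for the weaker divergent candidates the measured share was 74.4%, with 58.8% allowed. The median distance was 124 bp to the nearer start and 268 bp to the farther one. The summit was closer to the plus-strand gene in 199 of 371 pairs (53.6%, interval 48.6 to 58.6%), an interval that includes 50%.

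Summits between the starts often lay toward the middle of the stretch, about as often as those of the weaker candidates. Where starts are far apart, the rule itself leaves only positions near the middle. Of the 344 summits between the starts, 238 (69.2%, Wilson interval 64.1 to 73.8%) lay in the middle 50% of the stretch, against 208 of 300 (69.3%) of the weaker candidates. Among the 344 summits between the starts, the nearer start was at a median of 35.1% of the stretch (50% would be the midpoint; quartiles 21.7 and 41.98%), and the median distance from the midpoint over all 371 was 63 bp. The weaker candidates gave a like position, 34.01%. The nearer start was the same in both replicates at 324 of the 364 divergent peaks matched in both (89.01%), and at 207 of 214 (96.7%) where the pooled summit was over 50 bp from the midpoint. The peak of rpl-12 and lin-54 leaned far to one side, with its summit 36 bp from rpl-12 and 357 bp from lin-54. The peak of lin-53, 224 bp from its start and 243 bp from that of nra-2, was near the middle, as was that of gpr-2, a spindle positioning gene, at 291 bp, and rgr-1, a Mediator subunit gene, at 275 bp. At chst-1 and C41C4.9 the summit was 337 bp from each start.

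**Figure D3:**
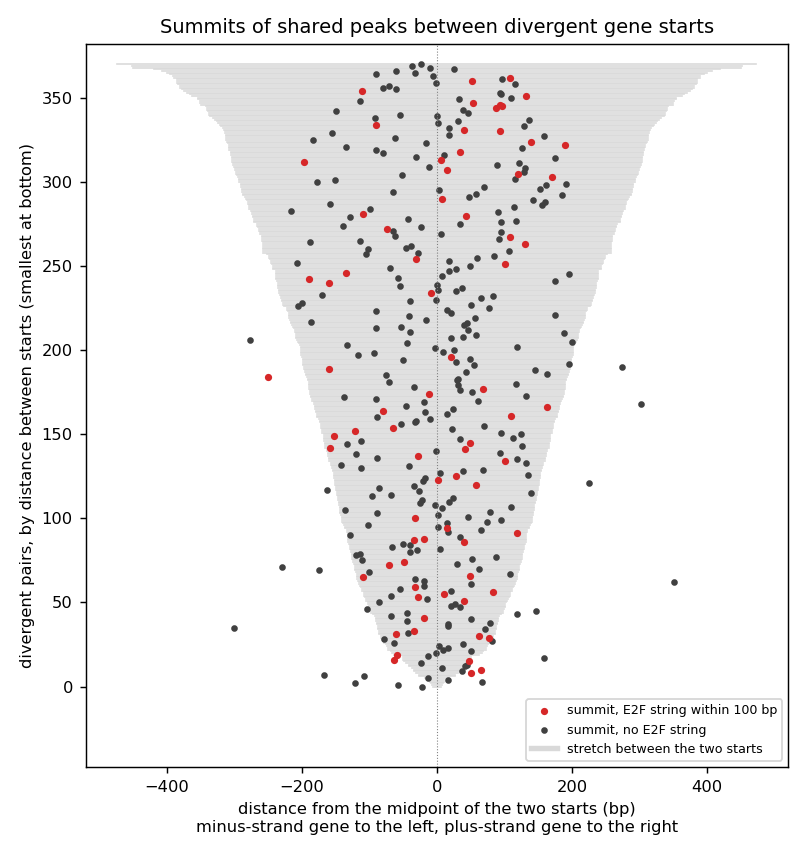
Each row is 1 of the 371 divergent shared peaks, ordered by the distance between the starts; grey spans the stretch between the starts, centred on its midpoint (x axis, bp), with the minus-strand gene on the left, and the dot is the summit, red where the E2F string lies within 100 bp. Most dots fall within the grey stretch, 344 of 371, and spread over both sides of the midpoint.

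With the summit so placed, distance to each gene grew with the stretch. This growth was largely set in advance, because a summit between distant starts cannot be near both, and the rule keeps both within 500 bp. Where the starts were at most 200 bp apart (47 peaks) the median distance was 30 bp to the nearer start; for 201 to 400 bp (150 peaks) the medians were 89 bp to the nearer and 221 bp to the farther start. For 401 to 600 bp they were 169 and 331 bp, and above 600 bp (62 peaks) 275 and 438 bp. The median signal values of these 4 classes were 92.5, 98.05, 100.6 and 115.3 in the same order. At the edge of the rule, W02D9.2 was 500 bp from its summit and ifet-1, whose peak lay 269 bp from rps-1, was 499 bp away; just outside it, cyn-7 was 502 bp from a summit that lay 8 bp from bath-36, with a signal value of 142, and math-33 was 503 bp from that of erfa-3. There were 81 peaks whose second start was 401 to 500 bp away and 54 at 501 to 600 bp.

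Set against all divergent pairs of the genome, a minority had a shared peak. There were 1849 pairs with starts at most 1000 bp apart and no other protein-coding start between, and 384 of them had a shared peak (20.8%, Wilson interval 18.98 to 22.7%). The share was 28.4% of 67 pairs with starts up to 100 bp apart, 16.02% of 206 at over 100 and up to 200 bp, 28.6% of 276 at 201 to 300 bp and 34.7% of 222 at 301 to 400 bp. It was 29.2% at 401 to 500 bp, 24.3% at 501 to 600 bp, 15.7% at 601 to 800 bp and 1.74% at 801 to 1000 bp. The positions at which a summit can reach both starts become fewer as the starts move apart, so the fall at long distances is set in part by the rule. The intervals for over 100 and up to 200 bp (11.6 to 21.6%) and for 301 to 400 bp (28.7 to 41.2%) did not overlap, although the closer pairs have more such positions.

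**Figure D4:**
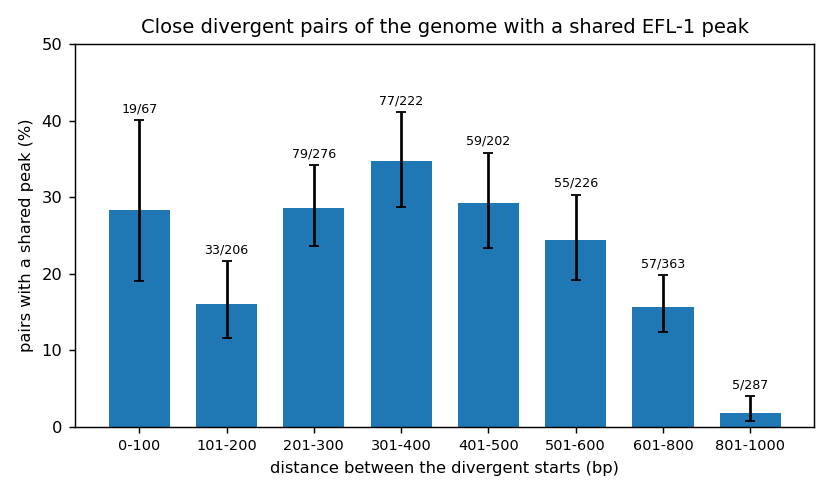
Share of all close divergent pairs of protein-coding genes that had a shared peak (y axis, percent), by the distance between their starts (x axis, bp); error bars are 95% Wilson intervals and the numbers above are pairs with a shared peak over all pairs. The share is highest at 301 to 400 bp, 34.7%, and is 1.74% at 801 to 1000 bp.

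Genes in close divergent pairs were bound more often than others. A peak lay within 500 bp of a start of 24.2% of the 3678 genes in such pairs (Wilson interval 22.8 to 25.6%), against 880 of the other 16295 protein-coding genes (5.06 to 5.76%) and 8.86% of all. A gene is bound here also when the summit belongs to its neighbour. Shared peaks reached 821 genes, 4.11% of all protein-coding genes and 46.4% of the 1770 bound ones, and 809 of the 821 had no peak of their own besides. With the nearest start alone, 1364 genes would be bound. On the X chromosome 2 of 85 close divergent pairs had a shared peak (2.35%, Wilson interval 0.648 to 8.18%), namely sec-15 with C28G1.2 at 114 and trap-2 with ile-2 at 77.8. The share was 33.01% on III, 28.3% on I, 20.1% on IV, 18.5% on II and 11.9% on V.

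Chromosome segregation genes were the list with the most shared peaks among the cell cycle lists. Of 62 genes for mitosis and the spindle, 33 had a shared peak, and of its 38 genes in close divergent pairs these were 33 (86.8%, Wilson interval 72.7 to 94.2%), against 20.9% of all genes in such pairs. The kinetochore gene kbp-4 had the highest value, 476 as given above, followed by the chromosomal passenger gene csc-1, which shared a peak of 402 (pool), 259.5 (replicate 1) and 159 (replicate 2) with the F-box gene fbxc-23. Each value belongs to the peak, and the listed gene was not always the nearer one. The summit lay 122 bp from kbp-4 and 4 bp from rab-18, but 179 bp from csc-1 and 221 bp from fbxc-23. Where just 1 gene came from the cell cycle, chromosome and germline lists, that gene was nearer in 38 of 71 pairs. The kinetochore gene knl-3 had 362, 237 and 121 with T10B5.3. The spindle checkpoint genes bub-3, mdf-2, bub-1, spdl-1 and san-1 had pooled values of 246, 186, 148, 116 and 65.6. The condensin genes hcp-6, smc-4, mix-1 and capg-2 had 264, 245, 155 and 81.97, and the cohesin genes scc-3, scc-1 and smc-3 had 169.6, 122 and 107. The lowest was him-10, a kinetochore gene, with a pooled value of 48.14, 20.1 for replicate 1 and 23.3 for replicate 2.

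Replication, repair and DREAM genes followed. Of 49 replication genes 17 had a shared peak, among them top-2 with 557, the replication fork gene tim-1 with 346, mcm-4 with 341 and the clamp loader gene rfc-4 with 309. Of the 24 replication genes in close divergent pairs 16 had one (66.7%, interval 46.7 to 82.03%); the peak of mcm-4 lay at a same-strand pair. Of 43 repair genes 9 had one, led by hpr-17 with 353 and the translesion polymerase gene polh-1 with 309, or 42.9% of the 21 in close pairs (24.5 to 63.5%). All 3 DREAM genes in close pairs had one, lin-53, lin-54 and lin-35, the last with 226 next to vps-51. The cell cycle control list had 7 of 11, led by the separase gene sep-1 with 252, the cyclin gene cyb-1 with 229 and the securin gene ify-1 with 169.9. Of these, sep-1 (433 bp, against 123 bp for nefr-1) and cyb-1 (469 bp, against 159 bp for orc-5) were the farther gene. In contrast, ify-1 was the nearer (202 bp, against 235 bp for rpl-22).

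Germline lists differed in how many of their genes had a divergent neighbour. Of 42 oocyte and maternal genes 29 were bound but 5 of them through a shared peak, at mex-5, puf-3, spn-4, pos-1 and par-5, and 8 of the 42 stood in a close pair. For meiosis 6 of 19 genes in close pairs had one (31.6%, interval 15.4 to 53.99%), led by the cohesin gene rec-8 with 348, and for germ granules and small RNAs 5 of 11, led by the helicase gene glh-2 with 302. The interval for meiosis includes the 20.9% of all genes in such pairs.

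Many growth genes also had shared peaks. All 6 chaperonin genes in close pairs had one (cct-5 with 290, cct-8 with 279.9, cct-6 with 173, cct-1 with 169.8, cct-7 with 89.96 and cct-4 with 82.1), each with a different partner, of 8 genes in the list. At each of them the pooled summit was nearer to the partner. The cct-5 start was 464 bp away and that of F25F2.1 277 bp. At cct-4 and nst-1 the distances were 231 and 228 bp, with the pooled summit 1.5 bp from the midpoint. The replicate 1 summit lay 22 bp further toward cct-4, so there cct-4 was the nearer gene. Of 82 cytosolic ribosomal protein genes 28 had one, or 58.3% of the 48 in close pairs (44.3 to 71.2%), with rpl-20 at 463, rpl-12 at 454 and rps-12 at 452 the highest. Nuclear pore and transport genes had 13 of 20 (65%, 43.3 to 81.9%), proteasome genes 10 of 21, translation factors 9 of 19, oxidative phosphorylation genes 15 of 35, membrane traffic genes 14 of 34, mitochondrial ribosomal protein genes 11 of 27, splicing genes 10 of 27 and aminoacyl-tRNA synthetases 1 of 12. The intervals of the chemoreceptor list, with 3 of 129 (0.794 to 6.61%), and of the sperm list, with 0 of 20 (upper bound 16.1%), lay below 20.9%. Those of the collagen list, with 3 of 23 (4.54 to 32.1%), the neuropeptide list, with 0 of 11 (upper bound 25.9%), and the aminoacyl-tRNA synthetases (1.49 to 35.4%) included it. Histone genes, which form 31 close pairs with each other, had 3 of 63, at his-67 and his-68 with 57.8 and at htz-1 with 247. The his-67 and his-68 copies are nearly alike, as are gpr-2 and gpr-1, and how reads that match several places were treated is not given in the labels.

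**Figure D5:**
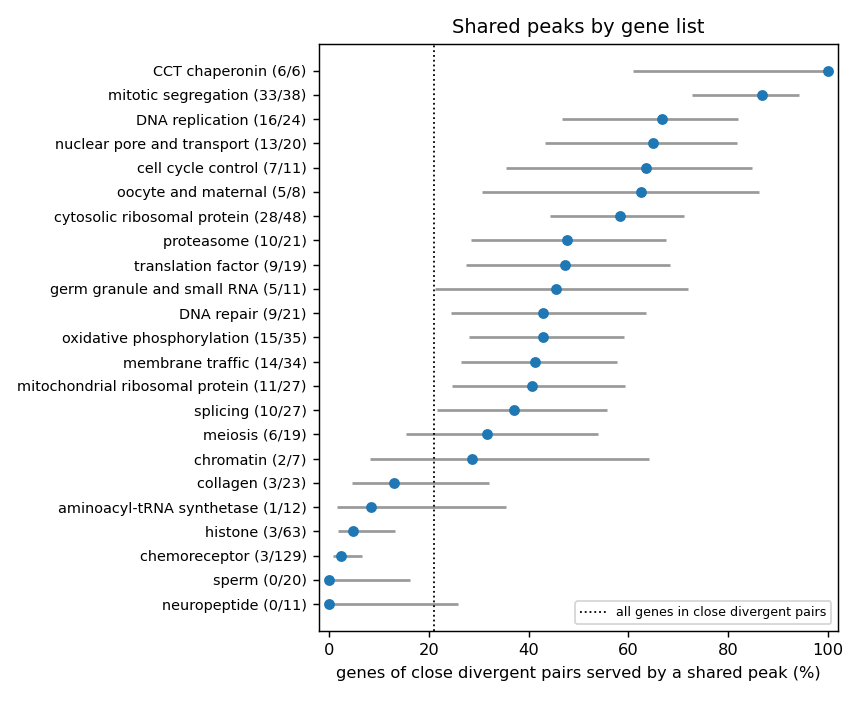
Share of the genes in close divergent pairs that had a shared peak (x axis, percent), for each list with at least 5 such genes; the label gives genes with a shared peak over genes in close pairs, bars are 95% Wilson intervals and the dotted line is the 20.9% of all genes in close pairs. Chaperonin (6 of 6) and segregation genes (33 of 38) stand highest, and the points of the collagen, aminoacyl-tRNA synthetase, histone, chemoreceptor, sperm and neuropeptide lists lie below the line.

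Shared peaks were counted by the kinds of genes a pair joins, with the cell cycle, chromosome and germline lists pooled into one kind and the growth lists into another. For a gene of the first kind beside a growth gene, the genome has 17 close divergent pairs, of which 13 had one (76.5%, Wilson interval 52.7 to 90.4%). They include npp-3 with top-2, rab-18 with kbp-4, rpl-12 with lin-54, the elongation factor gene eef-1A.1 with rfc-4 at 309, rps-22 with polh-1 at 309, eef-1G with the replication gene ctf-4 at 239.7, mdf-2 with the complex I gene nduv-3 at 186, and rpl-22 with ify-1 at 169.9. Pairs of 2 genes from the cell cycle, chromosome and germline lists had 7 of 10 (70%, 39.7 to 89.2%), led by rec-8 with mex-5, mei-2 with syp-6 at 308, and orc-5 with cyb-1. A gene of the first kind beside an unlisted gene had a shared peak at 58 pairs (55.8%, 46.2 to 64.9%), an interval that overlaps the one for the 17 pairs. Pairs of 2 growth genes had 10 of 21 (47.6%), a growth gene beside an unlisted one 84 (43.5%, 36.7 to 50.6%), and pairs with no listed gene 204 of 1311 (15.6%, 13.7 to 17.6%).

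Both genes of a pair were seldom in the same list. That was so for 5 of the 384 pairs with a shared peak (1.302%), against 62 of all 1849 close pairs (3.35%), of which 31 are histone pairs. The 5 were sec-61.B with trap-3 at 127, rpl-36 with rps-14 at 112.4, rpl-24.1 with rps-10 at 103, snr-3 with rsp-5 at 66.03 and the histone pair. Of the 31 histone pairs 1 had a shared peak. Of 26 pairs joining genes of somatic lists, such as the collagen list, 0 had one. Growth pairs had 10 of 21, and cell cycle, chromosome and germline pairs 7 of 10, whether or not both genes shared a list. Neither the cause of the lower share nor whether peaks avoid pairs within a list was tested. In pairs where just 1 gene came from the cell cycle, chromosome and germline lists, that gene was the nearer one in 38 of 71 (53.5%, Wilson interval 42.04 to 64.6%). For growth genes it was 42 of 94 (44.7%, 35.04 to 54.7%). For cytosolic ribosomal protein genes alone it was 8 of 24 (33.3%, 17.97 to 53.3%). All of these intervals include 50%.

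The share with the E2F string overlapped between shared peaks and peaks with 1 gene within counting error. Within 100 bp of the summit 82 of 410 shared peaks held it (20%, Wilson interval 16.4 to 24.1%), against 18.6% of 976 peaks with 1 gene (16.3 to 21.2%) and 13.9% of 793 with none. Among weaker candidates with 2 or more genes it was in 4.22% of 545, and at the midpoint of all 1849 close divergent pairs in 4.81%. With the window likewise at the midpoint, 48 of the 371 divergent shared peaks held it (12.9%). The short form was in 35.4% of shared peaks, 34.4% of peaks with 1 gene and 8.99% of the weaker candidates. For the letters read backwards (CGCCCTTT, CGCCGTTT, CGCGCTTT or CGCGGTTT) the shares were 9.27% (6.83 to 12.5%), 5.12% (3.91 to 6.69%) and 2.94%, so the intervals of shared peaks and peaks with 1 gene did not overlap for these letters, which stand as a control. Mean GC content was 38.8%, 39.7% and 36.8% in the same order.

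The sequence bound by LIN-54, the cell cycle gene homology region (TTCGAA or TTTGAA, either strand), was in 64.6% of shared peaks (Wilson interval 59.9 to 69.1%), 60.6% of peaks with 1 gene (57.5 to 63.6%) and 53.2% of the weaker candidates. At the midpoint of all close divergent pairs it was in 58.6%. Its reversed letters (AAGCTT or AAGTTT) were in 28.5%, 27.3% and 32.3% of the same 3 sets, and in 35.3% at the midpoints.

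The stronger shared peaks held the E2F string more often. Of the top 103 by signal, 44 did (42.7%, Wilson interval 33.6 to 52.4%), then 16.7%, 10.8% and 9.71% of the 3 following sets of like size. The median signal value was 185 with the string (n = 82 peaks) and 90.0 without it (n = 328). Among the strongest pairs, those at tbb-1, T23F6.3, top-2, kbp-4, ima-1 and lin-53 held it, and that at rpl-20 held neither form. The divergent peaks held 82 single strings, a count of strings and not the 82 peaks above. These lay a median of 25.5 bp from the summit, within the 100 bp searched, and 117 bp from the nearer start. Of them, 71 lay between the starts. Of those 71, 37 read toward the nearer start (52.1%, interval 40.7 to 63.3%), an interval that includes 50%.

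Of close divergent pairs with the E2F string anywhere between their starts, 38.6% of 184 had a shared peak (Wilson interval 31.9 to 45.8%), against 18.8% of the 1665 pairs without it (16.99 to 20.7%). Conversely 313 of the 384 pairs with a shared peak had no such string between the starts.

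Same-strand pairs were of 2 kinds. In 10 of the 18 the upstream gene ended 50 to 747 bp before the start of the downstream one, as with Y39G10AR.32 and mcm-4, a helicase subunit gene, whose peak had a pooled value of 341, 229 for replicate 1 and 111.6 for replicate 2. Its summit lay 332 bp past the start of Y39G10AR.32 and 156 bp before that of mcm-4. The strongest was that of Y65B4BL.6 and acs-13 with 362, 246 and 118.7, followed by mcm-4, then dld-1 with 331 and the splicing factor gene rsp-6 with 280. In the other 8 the genes shared an exon in the annotation, as did csr-1, an Argonaute gene, and frpr-10, whose peak had 169.95 in the pool.

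In the 10 convergent pairs the 5′ ends of the genes overlapped by 3 to 294 bp, and none of the summits lay between the starts. The strongest were ctps-1, the CTP synthase gene, with pus-1 at 146, 99.2 and 42.7 (pool, replicate 1 and replicate 2), and the meiotic gene rec-1 with pif-1 at 117, 71.9 and 41.3. The cell division gene fzy-1 shared a peak of 55.03 with F12A10.8, with its start 341 bp away. Of the 11 peaks with 3 genes, the strongest had 135 at elof-1, lin-7 and Y54G11A.17. The centriole kinase gene zyg-1 stood at another, with F59E12.17 and sam-4, at 126, and the cohesin gene smc-3, with mib-1 and gly-9, at one of 107.

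Few shared peaks lay at genes of short structural RNAs. A summit was within 100 bp of a tRNA gene in 2 of 410 shared peaks (0.488%, Wilson interval 0.134 to 1.76%), against 5.53% of peaks with 1 gene and 30.8% of peaks with none. They were the peaks of sec-15 on X and of elmd-1 with hecw-1. Small nucleolar or small nuclear RNA genes stood at 5 shared peaks (1.22%, interval 0.522 to 2.82%), among them that of tim-1. They stood at 1.64% of peaks with 1 gene (1.01 to 2.65%), an interval that overlaps the first, and at 6.94% of peaks with none.

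An annotated 5′ untranslated region was present at 90.4% of the 742 starts of the divergent shared peaks, against 70.3% of all 29314 protein-coding starts. For a transcript with no such region the distance runs to the start codon.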

How the data were processed

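Chromatin immunoprecipitation of tagged EFL-1 was measured in 2 biological replicates, which form 1 group, so no contrast between samples exists. Peak lists on build ce11 were used: 30000 candidates for each replicate and for the pool, and the authors' optimal list after the irreproducible discovery rate, per the descriptions deposited with the files. Lists on ce10 were not used. Each peak carries the authors' signal value, on an unstated scale, and a deposited −log10 q-value, which was not used for ranking. No source used here names the aligner, the peak caller or the threshold of the list. Without read counts the precision per peak cannot be given.

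Summits were set against the starts of protein-coding transcripts (Ensembl release 115, WBcel235, the same assembly as ce11; coordinates from base 1). For each gene the start nearest to the summit counted, and an overlap of at least 1 bp matched a peak to the strongest candidate of a replicate. The 28 mitochondrial peaks were left out. Sequences came from the RefSeq copy of WBcel235, and strings were searched on both strands within 100 bp of the summit. The sequence of 1 further pair is not reported here. The members, gene lists and comparisons were chosen with earlier results of these data known. Gene lists use gene names, with 5 entries unmatched; rpl-7A was added, and names of other families taken out of the chemoreceptor list, after values were seen. Genes named are those of the strongest peaks of the whole set, of each layout and of each list, pairs within 1 list, pairs at the edge of the rule and the summit nearest the midpoint of starts; others named were chosen after their values were seen, as were the pairs with 2 peaks. Layout and string searches were tested on 1200 simulated peaks and 1000 planted strings, and recovered 100% of each. The strings were spelled as searched and planted in sequence of A and T only, and the layouts followed the same definitions. The test therefore checks the code and not the accuracy on the genome or its annotation. Python 3.11.15, numpy 2.4.6, pandas 2.3.3, scipy 1.17.1 and statsmodels 0.14.6 were used. Alternatives were other distances, starts, list cuts, windows and each replicate alone.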

Additional observations from a re-analysis of the deposited data

How the results depend on the processing

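No paired analysis was possible because there is 1 group and no contrast. Of 42 alternative values 26 were counted as unchanged and 16 as moved. Shares were judged by the interval of the reported value, and the signal ratio by the spread between replicates. The number of shared peaks was judged by a looser rule than its interval. The 362 found with the candidates of 1 replicate was therefore counted as unchanged. The number of shared peaks (410) was 116 at 200 bp, 243 at 300 bp, 680 at 1000 bp. It was 258 when the weaker 50% of peaks were dropped. With the candidates of 1 replicate it was 362 to 412. The divergent share (90.5%) was 93.1% at 200 bp and 75% at 1000 bp. The ratio of median signal, shared peaks over peaks with 1 gene (1.101), was 1.03 at 200 bp, 1.17 at 1000 bp and 0.999 with the stronger 50%. The share of summits between divergent starts (92.7%) was 88.0% at 200 bp. The share with the E2F string (20%) was 26.4% with the stronger 50% and 12.9% with windows at the midpoint of divergent starts. The share of close divergent pairs with a shared peak (20.8%) was 6.11% at 200 bp, 26.6% at 1000 bp, 13.1% with the stronger 50% and 18.2 to 20.98% with 1 replicate alone. Shorter distances and fewer peaks leave fewer positions that can qualify, and the cause of the other changes was not tested. The start of the canonical transcript was not run, since the annotation tags none. The files give no depth, so candidates missing in a replicate cannot be set against its coverage.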
